A study of Mus musculus with 6 samples.

Results

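The 10 genes described here make, degrade and sense polyamines, or belong to a protein modification that uses a polyamine as substrate. They were taken by symbol from the count table through their NCBI gene numbers: Odc1, Srm, Sms, Amd1, Sat1, Oaz1, Oaz2, Azin1, Dhps and Eif5a. All 10 have a row among the 24885 rows of the table. In 9 of them reads were counted, and these 9 passed the filter on low counts. Amd1 had no count in any library.

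The RNA came from mouse Eμ-Myc lymphoma cells, in which a Myc transgene active in the B lineage drives the tumour. Every library carries the same source label: the Eμ-Myc transgene, the tamoxifen-inducible recombinase Cre-ERT2+, and both copies of the miR-17~92 microRNA cluster flanked by loxP sites (miR-17~92 fl/fl). The 3 fl libraries came from floxed cells without deletion. The 3 del libraries came from cells in which 250 nM 4-hydroxytamoxifen (4-OHT) had been used to delete the cluster, and which had then been subcloned. All cells were grown for 48 hours on irradiated Ink4a-null mouse embryonic fibroblasts. Deletion, 4-OHT exposure and subcloning cannot be told apart in this design, and the number of subclones behind the del libraries is unknown here. No label says whether libraries of 1 group are separate cultures, so p-values measure the spread between these libraries, which may be technical.

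Polyamines are small positively charged molecules that bind RNA and are needed for growth. Ornithine decarboxylase makes putrescine, and spermidine and spermine synthases lengthen it with aminopropyl groups from decarboxylated S-adenosylmethionine. Antizymes sense polyamines and send ornithine decarboxylase to the proteasome, and the antizyme inhibitor draws antizyme away. Spermidine also donates the group that deoxyhypusine synthase places on a lysine of eIF5A, a factor that keeps ribosomes moving through difficult peptide stretches. Ornithine decarboxylase is a textbook target of MYC.

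The comparison of del with fl asks how the cells differ without the cluster. The fl libraries held 6554423 to 9580630 counts and the del libraries 2121796 to 3738720, so depth and group go together. Levels are in CPM, which sets the counts of every library on 1 scale with TMM factors, and fold changes are del against fl. The deletion itself could not be read from these 3' tags. Mir17hg, the host transcript, was called lower in del, as were 32.6% of all tested genes. It was at 259 ± 6 CPM in fl, against 175 ± 28 CPM in del (SD, n = 3, log2 fold change -0.56, adjusted p = 0.00844). The microRNA genes of the cluster had at most 3 counts in a group. The B cell origin of Eμ-Myc lymphoma was checked against 12 markers, whose summed level was 48.4 to 57.3 CPM in fl, against 1169 to 1361 CPM in del. In fl, Rag1 had no count, and Ebf1, Cd22 and Fcrla had 7, 9 and 15 counts over the group, which goes against the label of the fl libraries. The 6 epithelial markers summed to 370.9 to 410.7 CPM in fl, against at most 1.32 CPM in del, with Cdh1 and Cldn7 at 0 in both groups. The 9 myeloid markers summed to 427.8 to 472.7 CPM in fl, against 3040 to 3853 CPM in del. Most of the fl sum was Fcer1g, whose mean rose from 390.6 to 599.4 CPM. Lyz2 and Cybb rose from 0.371 and 1.97 CPM to 453.9 and 1470 CPM. Among the 8 tested myeloid markers 7 rose, while Cd14 fell (3.93 to 1.95 CPM, adjusted p = 0.0431). The 11 fibroblast markers summed to 2.06 to 8.21 CPM (fl), against 13.7 to 32.7 CPM (del). For the 7 T and NK cell markers the sums were 38.5 to 42.5 CPM (fl), against 99.0 to 120.1 CPM (del). Of the 3 tested T and NK cell markers only Cd2 rose (13.1 to 104.7 CPM), while Cd5 fell (23.3 to 3.30 CPM) and Lck fell from 3.24 CPM to 0. Of the 5 erythroid markers, 4 were at 0 in both groups, and the sum was at most 0.587 CPM. These marker levels moved with the groups, and their part in the differences between fl and del was not tested. In bulk RNA, fewer cells of a type and less RNA per cell cannot be told apart.

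Of the 9 tested genes, 4 fell and 2 rose in del. Eif5a, Srm, Dhps and Sms fell, and Sat1 and Azin1 rose. Odc1, Oaz1 and Oaz2 did not pass the threshold, an adjusted p under 0.05 over all genes tested. The background was high: 65.1% of the 10260 tested genes passed it, 32.6% lower and 32.5% higher in del. The calls in 6 of the 9 genes are thus close to the share in all genes. For these 6 genes the groups did not overlap, 4 lower and 2 higher in del, as for 69.9% of all tested genes (35.7% lower and 34.2% higher). The median log2 fold change of the 9 was -0.55, and that of all tested genes was 0.

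**Figure D1:**
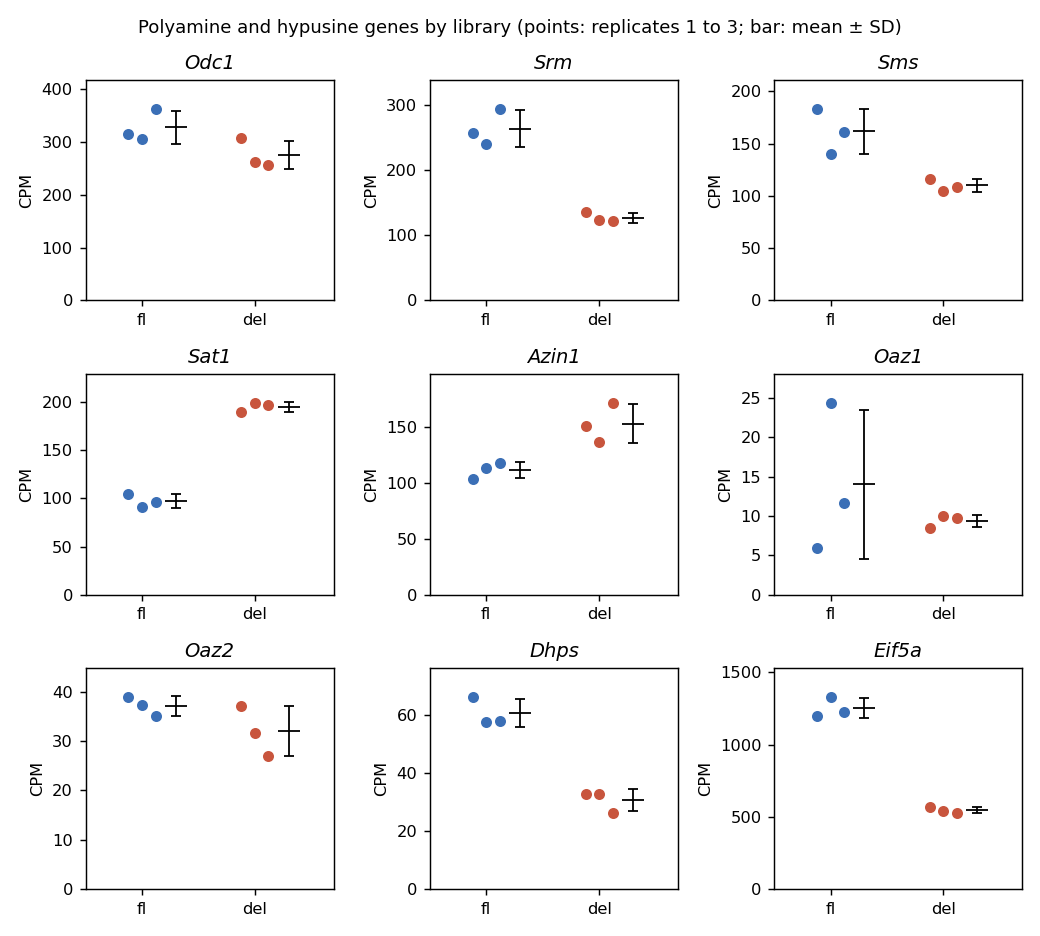
Level of each counted gene in CPM (vertical axes from 0) in the 3 fl (blue) and 3 del (red) libraries, with the mean and SD as a black bar. Eif5a, Srm, Sms and Dhps lie lower in every del library, Sat1 and Azin1 higher, and Odc1, Oaz1 and Oaz2 overlap between the groups.

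Transcript length moved with the fold change over all genes, and 5 of the 9 tested members are among the shortest. The tested genes with an annotated transcript were divided by its length into 5 bins of 2002 genes. In the bin of the shortest, which holds Srm, Sat1, Oaz2, Dhps and Eif5a, the median log2 fold change was -0.67. In the next, with Odc1 and Oaz1, it was -0.25. It was -0.05 in that of Sms, 0.32 in that of Azin1, and 0.80 in the bin of the longest. For this reason the value in a fit that removes the dependence on length and GC content of the transcript (the length-adjusted fit) is given beside each member whose call or direction changed with it. There, 2 members fell (Sms and Eif5a) and 1 rose (Sat1), beside 58.4% of all 10010 genes tested in it, 27.8% lower and 30.6% higher.

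Of the 4 genes of synthetic enzymes, 2 fell (Srm and Sms), 1 did not pass the test (Odc1) and 1 had no counts (Amd1). Over all tested genes 32.6% fell. In the length-adjusted fit Sms alone of these was called lower, beside 27.8% of all genes. Odc1, the rate-limiting ornithine decarboxylase, lies on chromosome 12 (gene number 18263, GRCm38, 17544808 to 17551502). Its level was 315.8, 304.8 and 363.3 CPM in fl, and 306.8, 262.4 and 257.1 CPM in del. The highest del library lay above the lowest fl library, so the groups overlapped. The log2 fold change was -0.25 ± 0.14 (SE, adjusted p = 0.155, quasi-likelihood test of edgeR). With upper-quartile scaling, which moved the median of all genes by -0.13, Odc1 was at -0.38 (adjusted p = 0.0477). The length-adjusted fit gave 0.15 (adjusted p = 0.355). Part of its 3' end, 17.7% of the 50-base stretches in the last 500 bases of its longest coding transcript, also occurs in transcripts of other genes, which leaves its level less certain.

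Srm encodes spermidine synthase, which turns putrescine into spermidine, and lies on chromosome 4 (gene number 20810, 148591513 to 148594619). It was at 257.6, 240.4 and 295.1 CPM in fl and 135.6, 123.2 and 121.6 CPM in del. Every del library lay below every fl library, by a mean of 2.08-fold (log2 fold change -1.06 ± 0.14, adjusted p = 0.000158). In the length-adjusted fit the difference was -0.31 ± 0.13 and was no longer called (adjusted p = 0.0673).

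Sms, on chromosome X (gene number 20603, 157443851 to 157492287), encodes spermine synthase, the next enzyme of the chain. Its levels were 183.5, 139.8 and 161.3 CPM in fl and 116.4, 104.7 and 108.9 CPM in del. The groups did not overlap, and the log2 fold change was -0.55 ± 0.15 (adjusted p = 0.00794). Its transcript is long for this set, 3717 nucleotides against 1338 for Srm. Length adjustment gave -0.64 ± 0.14 (adjusted p = 0.00311), so that Sms kept its call where Srm did not. Within each library the count ratio of Srm to Sms was 1.40, 1.72 and 1.83 in fl and 1.17, 1.18 and 1.12 in del. They did not overlap between the groups (log2 difference -0.51), but the difference turned to 0.33 when taken from the length-adjusted fold changes. A ratio within a library does not depend on how libraries are scaled, but it is not adjusted for transcript length.

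Amd1 encodes S-adenosylmethionine decarboxylase, which supplies the aminopropyl groups for both synthases. The gene lies on chromosome 10 (gene number 11702, 40287458 to 40302188). It had 0 counts in all 6 libraries. At a floor of 3 counts over the group this allows at most 0.120 CPM in fl, and at most 0.317 CPM in del. Its near-copy Amd2 also had 0 counts throughout. Of the 50-base stretches in the last 500 bases of the Amd1 coding transcript, 98.7% occur in Amd2 as well. The sources used here do not say how the authors counted reads that match more than 1 gene. Whether the 0 reflects little Amd1 RNA or the counting was not tested.

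The amount of RNA for the catabolic enzyme SAT1 went the other way. Sat1, on chromosome X (gene number 20229, 155213126 to 155216449), encodes spermidine/spermine N1-acetyltransferase, which acetylates polyamines so that they can be exported or oxidised. It was at 104.5, 90.9 and 96.5 CPM in fl and 189.4, 199.4 and 196.8 CPM in del. All 3 del libraries lay well above the fl libraries, and the spread within each group was small. The rise was 2.01-fold (log2 fold change 1.00 ± 0.13, adjusted p = 0.000124) and was larger, at 1.5 ± 0.12 on the log2 scale, in the length-adjusted fit. The number of Odc1 counts per Sat1 count was 3.02, 3.35 and 3.77 in fl and 1.62, 1.32 and 1.31 in del, a log2 difference of -1.26. This was the largest of the 6 ratio differences computed.

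The genes of both polyamine oxidases fell, beside 32.6% of all tested genes lower in del. Paox, which encodes the peroxisomal oxidase of acetylated polyamines, was at 46.3 ± 0.692 CPM in fl but 8.02 ± 2.00 CPM in del (SD, n = 3 each, log2 fold change -2.57 ± 0.18, adjusted p = 4.44e-06). Smox, the gene of spermine oxidase, which acts on spermine directly, had 26.3 ± 1.85 CPM and 6.38 ± 1.19 CPM, respectively (log2 fold change -2.06 ± 0.18, adjusted p = 1.52e-05). Both are larger shifts than that of any member. Sat2, a relative of Sat1, had only 36 counts in fl and 7 in del and was not tested.

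**Figure D2:**
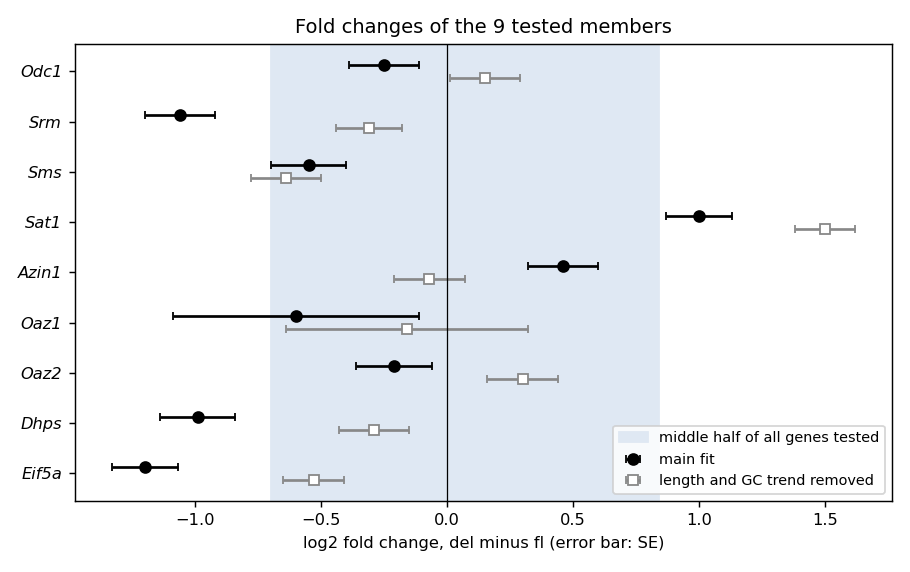
Log2 fold change, del minus fl, with its SE for the 9 tested genes, as fitted (black circles) and in the length-adjusted fit (grey squares). The shaded band spans the 25th to 75th percentile of all tested genes as fitted, -0.70 to 0.84, and was not recomputed for the length-adjusted fit. Sat1 lies right of the band in both fits, whereas Srm, Dhps and Eif5a lie left of it only in the first of these.

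Antizyme genes and their inhibitor form the feedback arm. Antizyme is made only when ribosomes slip by 1 base at an early stop codon, a step that polyamines favour and that counts of RNA do not show. The annotation of GRCm38 models this slip as a gap of 1 base in the exons of both Oaz1 and Oaz2. The 30 bases around it are shown because they mark how similar the slip sites of the 2 genes are. Capitals mark the TGA stop codon whose T is skipped, at chr10:80828295 in Oaz1 and chr9:65686272 in Oaz2, both on the plus strand.
Oaz1 (chr10:80828281-80828310): ctcggtggtgctccTGAtgtccctcaccca
Oaz2 (chr9:65686258-65686287): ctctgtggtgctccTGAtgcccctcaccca

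Oaz1, the gene of antizyme 1, lies on chromosome 10 (gene number 18245, 80826656 to 80829290). It was at 5.96, 24.4 and 11.7 CPM in fl and 8.43, 9.95 and 9.73 CPM in del. The range of the fl libraries enclosed the del libraries, and fl replicate 2, with 218 counts, stood apart from replicates 1 and 3, with 52 and 80. The log2 fold change of -0.60 ± 0.49 did not pass (adjusted p = 0.303). It was 0.10 without fl replicate 2 and -0.98 without fl replicate 1 (adjusted p = 0.808 and 0.0240). Of the 50-base stretches of its 3' end, 36.6% are shared with the pseudogene Oaz1-ps, which had 0 counts. The level of Oaz1, and the ratios that hold it, are thus less certain. Whether the counting lowered this level was not tested. No direction can be given for Oaz1.

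Oaz2, the gene of antizyme 2, lies on chromosome 9 (gene number 18247, 65676548 to 65690300), and none of its 3' end stretches is shared with other annotated transcripts. It was at 38.9, 37.3 and 35.0 CPM in fl and 37.1, 31.7 and 27.0 CPM in del. The groups overlapped (log2 fold change -0.21 ± 0.15, adjusted p = 0.245), and the value was 0.30 in the length-adjusted fit (adjusted p = 0.0961). Oaz3 had no count in any library.

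Azin1 encodes antizyme inhibitor 1, a relative of ornithine decarboxylase without its activity that binds antizyme. The gene lies on chromosome 15 (gene number 54375, 38487430 to 38519294). It was at 103.4, 113.2 and 118.3 CPM in fl and 150.9, 136.9 and 171.9 CPM in del. Each del library lay above each fl library (log2 fold change 0.46 ± 0.14, adjusted p = 0.0166). The call was lost with upper-quartile scaling (0.33, adjusted p = 0.0712) and without fl replicate 1 (0.40, adjusted p = 0.0535). In the length-adjusted fit the value was -0.07 ± 0.14 (adjusted p = 0.683). At 4871 nucleotides, its longest annotated transcript is the longest among the counted members, and the antisense gene Gm49077 overlaps 481 bases at its 5' end. Odc1 counts per Azin1 count were 3.05, 2.69 and 3.07 in fl and 2.03, 1.92 and 1.5 in del. They did not overlap (log2 difference -0.70), but the difference turned to 0.23 with the length-adjusted fold changes. Azin2, a second inhibitor gene, had 37 counts in fl and 0 in del, and did not pass the filter.

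**Figure D3:**
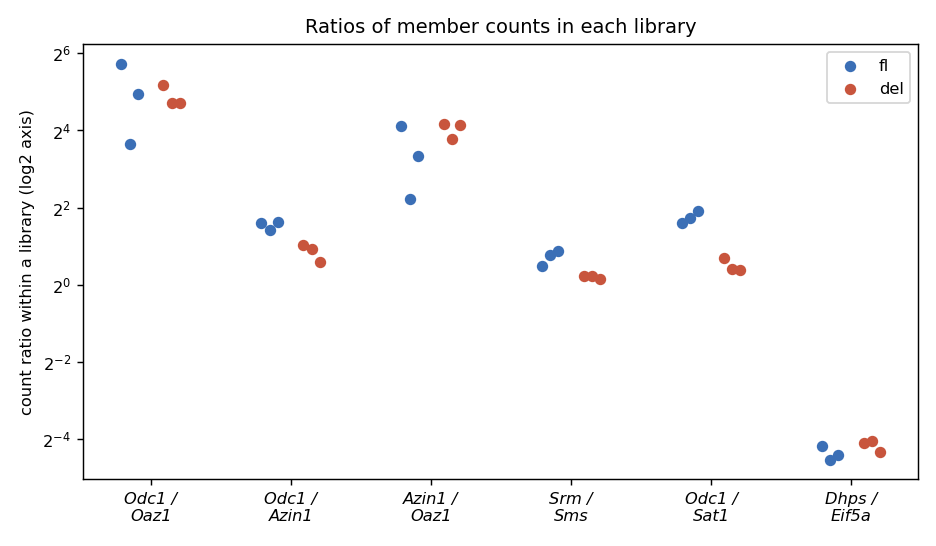
Count ratios of 6 pairs of members in each library on a log2 axis, fl in blue and del in red, without adjustment for transcript length. Odc1 to Azin1, Srm to Sms and Odc1 to Sat1 do not overlap between the groups (the first and second turn in sign with length adjustment, to 0.23 and 0.33), while the pairs with Oaz1 are spread by fl replicate 2 and Dhps to Eif5a overlap.

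The 6 ratios were compared with an exact two-sided permutation test, in which 3 libraries against 3 cannot go below 0.10. Odc1 to Azin1, Srm to Sms and Odc1 to Sat1 reached that smallest value (exact permutation p = 0.10, adjusted p = 0.200 over the 6 ratios). Odc1 to Oaz1 differed by 0.10 on the log2 scale (exact permutation p = 0.900) and Azin1 to Oaz1 by 0.81 (exact permutation p = 0.200). None can pass a threshold of 0.05 in this design. Taken from the length-adjusted fold changes, a comparison added after the data were seen, the difference was 0.33 for Srm to Sms and 0.23 for Odc1 to Azin1, both opposite in sign to the counts. It was -1.34 for Odc1 to Sat1, 0.24 for Dhps to Eif5a, 0.31 for Odc1 to Oaz1 and 0.08 for Azin1 to Oaz1.

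All 3 tested genes of the hypusine branch, the members Eif5a and Dhps and the listed gene Dohh, fell as fitted. Over all tested genes 32.6% fell. In the length-adjusted fit Eif5a and Dohh were called lower and Dhps was not, beside 27.8% of all genes lower. Eif5a, on chromosome 11 (gene number 276770, 69916712 to 69921958), encodes the main form of the factor that receives hypusine. It was at 1197, 1330 and 1227 CPM in fl and 566.0, 541.0 and 528.0 CPM in del. The lowest fl library was above the highest del library by a wide margin, and the fall was 2.30-fold (log2 fold change -1.20 ± 0.13, adjusted p = 3.95e-05). The length-adjusted value was smaller, at -0.53 ± 0.12, and still called (adjusted p = 0.00389). No 50-base stretch of its 3' end occurs in another annotated transcript. Eif5a2, the second form, had 0 counts in fl and 1 in del.

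Dhps encodes deoxyhypusine synthase, which moves the aminobutyl group of spermidine onto eIF5A, and lies on chromosome 8 (gene number 330817, 85071486 to 85075162). It was at 66.2, 57.7 and 57.9 CPM in fl and 32.9, 32.7 and 26.2 CPM in del. The groups did not overlap (log2 fold change -0.99 ± 0.15, adjusted p = 0.000316), but the value was -0.29 ± 0.14 and not called in the length-adjusted fit (adjusted p = 0.105). The last 128 bases of the gene overlap the end of Wdr83 on the other strand, whose mean level was 26.4 CPM in fl, against 14.8 CPM in del. The libraries are strand-specific per the labels, but the sources used here do not say whether the counting used strand. Dohh encodes deoxyhypusine hydroxylase, which completes the modification. Its log2 fold change was -1.58 ± 0.15 (adjusted p = 2.1e-05), from a mean of 42.9 CPM in fl to 14.3 CPM in del, and -0.88 (adjusted p = 0.000622) in the length-adjusted fit. Dhps counts per Eif5a count were 0.0553, 0.0434 and 0.0472 in fl and 0.0582, 0.0604 and 0.0497 in del, which overlap.

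The members were compared with 5 lists of related genes, given as counts beside the background of 32.6% lower and 32.5% higher. Of 11 other polyamine and hypusine genes, 3 could be tested and all 3 (Paox, Smox and Dohh) fell, and Arg1, Agmat, Amd2 and Oaz3 were at 0 in every library. Of 4 tested transport genes, 1 rose and 1 fell. Atp13a2, which encodes a lysosomal polyamine exporter, rose by 0.99 ± 0.13 on the log2 scale (28.2 ± 2.17 CPM in fl, 56.2 ± 3.15 CPM in del, adjusted p = 0.000164). Slc3a2, the heavy chain of amino acid transporters, fell (194.1 ± 15.1 CPM and 79.6 ± 11.5 CPM, log2 fold change -1.28 ± 0.15, adjusted p = 7.87e-05). Atp13a3 and the arginine transporter gene Slc7a1 had log2 fold changes of 0.14 and -0.04 (adjusted p = 0.456 and 0.813). In the length-adjusted fit these were -0.74 and -0.69 and both were called lower (adjusted p = 0.00323 and 0.0018).

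Of 8 tested genes that supply S-adenosylmethionine or salvage methionine from the by-product of polyamine synthesis, 5 fell and none rose, with a median of -0.55. In the length-adjusted fit 3 fell and 1 rose, beside 27.8% of all genes lower and 30.6% higher. Mri1, an isomerase of the salvage route, went from 104.0 ± 10.6 CPM to 37.9 ± 5.11 CPM (-1.45 ± 0.15). Ahcy, the gene of adenosylhomocysteinase, stood at -1.49 ± 0.19, and Adi1 and Apip, both salvage enzymes, at -0.90 ± 0.15 and -0.75 ± 0.15. Apip was not called in the length-adjusted fit (-0.14, adjusted p = 0.461). Mat2b, at -0.34 ± 0.13 (adjusted p = 0.0490), lost its call in 10 of 14 alternatives (adjusted p 0.0573 to 0.561). Mtap, which takes the by-product methylthioadenosine into salvage, was at 192.4 ± 8.48 CPM and 231.6 ± 11.8 CPM (log2 fold change 0.27, adjusted p = 0.0898), and Mat2a at 913.7 ± 111.9 CPM and 810.7 ± 104.9 CPM (adjusted p = 0.345). Mat2b, Mtap and Mat2a were chosen after their values were seen.

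**Figure D4:**
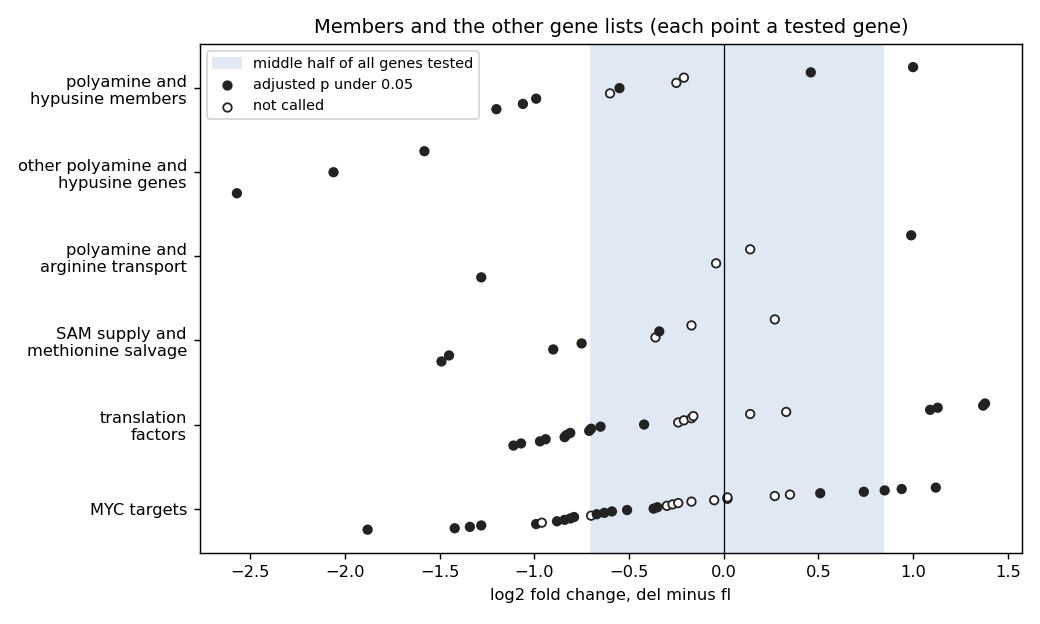
Log2 fold change, del minus fl, of each tested gene in the members' list and 5 related lists (filled: adjusted p under 0.05; open: not called), with the 25th to 75th percentile of all tested genes shaded. All 3 tested genes of the second list lie at or below -1.58, while translation factors and MYC targets reach from below -1 to above 1.

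Translation factors other than eIF5A moved both ways. Of 21, 11 fell and 4 rose (median -0.42). In the length-adjusted fit 9 fell and 3 rose, beside 27.8% of all genes lower and 30.6% higher. The elongation factor genes Eef1b2 and Eef1a1 stood at -1.07 ± 0.13 and -0.71 ± 0.11, Eif6, a factor of the large ribosomal subunit, at -1.11 ± 0.14, and the helicase gene Eif4a1 at -0.81 ± 0.13. Eif6 was at -0.41 in the length-adjusted fit. Eif5a, at -1.20, lay below all 21 of these genes as fitted, but in the length-adjusted fit it was at -0.53 and Eef1b2 and Eif4a1 at -0.71 and -0.73. The 4 that rose as fitted were Eif3a, Eif5b, Eif3c and Eif4g1, named after their values were seen, with log2 fold changes of 1.38, 1.37, 1.13 and 1.09.

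Myc itself was at 454.4, 416.6 and 534.0 CPM in fl and 451.9, 421.6 and 395.5 CPM in del. The groups overlapped (log2 fold change -0.15 ± 0.15, adjusted p = 0.399), and the value was 0.26 in the length-adjusted fit (adjusted p = 0.123). How far this row counts RNA of the transgene was not tested. Of 31 tested MYC targets outside the polyamine pathway, 15 fell and 5 rose, with a median of -0.37. In the length-adjusted fit 11 fell and 4 rose, beside 27.8% of all genes lower and 30.6% higher. The 5 that rose as fitted were Cdc25a, Ncl, Nolc1, Tfrc and Cad, named after their values were seen. Their log2 fold changes were 1.12, 0.94, 0.85, 0.74 and 0.51. Ldha, the gene of lactate dehydrogenase A, stood at -1.88 ± 0.13. Mrto4, a ribosome assembly factor, had a mean of 163.4 CPM in fl, against 60.9 CPM in del, and the chaperonin gene Hspe1 and Nme2 stood at -1.34 ± 0.13 and -1.28 ± 0.14. In the length-adjusted fit Mrto4, Hspe1 and Nme2 were at -0.69, -0.75 and -0.48. Eif4e and Eif4a1 are in this list and in that of translation factors. Other annotated transcripts share 98.9% of the 3' end stretches of Nme2, 53.2% of those of Hspe1, 15.7% for Mrto4, 35.0% for Eef1a1 and 12.2% for Slc3a2, so these levels are less certain.

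CACGTG, the letters of the E-box that MYC and MAX bind and the same on both strands, was sought in the RefSeq promoters (250 bases before to 50 after each start, GRCm38.p6). Of the 10 members 8 have a promoter in that set, and 2 of these, Eif5a and Sms, hold the motif. Srm and Azin1 have no promoter in the set and were not searched. In all 32851 promoters the share with the motif is 7.15%, and among tested genes with a promoter 12.4% have it in at least 1, against 11.8% of those that fell and 12.5% of those that rose. The Odc1 promoter window holds none, but sequence beyond 50 bases after its start was not searched. The matches are shown with 12 bases on each side, because they are the only ones among the members, with the motif in capitals and read along the minus strand, on which both genes lie. The first Eif5a match also lies 185 bases before the next listed start.
Eif5a, 74 bases before the second of its 6 listed starts (chr11:69921443-69921472): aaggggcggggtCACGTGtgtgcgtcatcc
Eif5a, 178 bases before the last of these starts (chr11:69920791-69920820): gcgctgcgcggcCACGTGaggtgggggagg
Sms, 196 bases before the first of its 2 listed starts (chrX:157492466-157492495): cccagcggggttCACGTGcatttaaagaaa

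The members were also searched for sites of the deleted microRNAs, since a microRNA lowers RNAs that hold a match to its seed, bases 2 to 8 from its 5' end. The 6 listed mature microRNAs of the cluster, 1 arm of each hairpin, are from RefSeq (GRCm38.p6) and share 4 seeds, shown in capitals.
miR-17-5p: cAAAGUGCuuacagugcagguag
miR-20a-5p: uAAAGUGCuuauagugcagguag
miR-18a-5p: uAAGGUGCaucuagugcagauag
miR-19a-3p: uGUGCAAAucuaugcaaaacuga
miR-19b-3p: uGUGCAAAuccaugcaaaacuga
miR-92a-3p: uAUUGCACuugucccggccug

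None of the 9 counted members holds a 7-base match to any of these seeds in its longest annotated 3' UTR. These UTRs run from 133 nucleotides in Dhps to 2934 in Azin1. Over 9727 tested genes the share with a match is 14.7% for miR-17 and miR-20a, 9.1% for miR-18a, 13.5% for miR-19 and 7.7% for miR-92a. Amd1, the member without counts, has 2 matches in a UTR of 1871 nucleotides on the minus strand of chromosome 10, shown with the match in capitals.
Amd1, miR-18a (chr10:40288402-40288431): ggctgtgcagtGCACCTTaattagcgttaa
Amd1, miR-92a (chr10:40289171-40289200): gtgtaatgataGTGCAATcattttgaagtg

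For Odc1, Oaz1 and Eif5a, the nearest profiles were found by the root mean square difference of centred log2 CPM over the 6 libraries, among 6044 genes of at least 20 CPM. Those nearest to Odc1 were Aurkb, Slc35a3 and Tyw1, at 0.036, 0.041 and 0.044. Those nearest to Eif5a were Ndufa11, Anxa1 and Tmem147, at 0.044, 0.046 and 0.052. Oaz1 had no profile as close: Gse1, Yipf3 and Mbnl2 were at 0.199, 0.369 and 0.400.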

How the data were processed

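The authors deposited 1 table of raw read counts per gene for 6 libraries. Per the labels' protocols, RNA was primed with barcoded oligo-dT and made into strand-specific 3' end libraries. STAR, HTSeq and mm10 are named in the submitters' processing notes, without versions or settings. Symbols came from RefSeq (GRCm38.p6), which matched 23969 of 24052 gene numbers, and transcripts from GENCODE (GRCm38).

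The comparison used edgeR 4.0.16 (R 4.3.3): filterByExpr by group, TMM factors, robust quasi-likelihood F test with group as the only term, and Benjamini-Hochberg adjustment over all genes tested. Every adjusted p for a gene is from this test unless an alternative is named. SEs come from the F statistic. Floors cover counting error only, since PCR copies are not independent molecules. The test was also run on simulated counts, in which far fewer genes changed than were called here. That run therefore does not show how the test performs on these data. Within groups no pair of libraries agreed within sampling noise (chi-square over its degrees of freedom of at least 7.13).

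The alternatives were DESeq2 1.42.0, other scalings and filters, libraries thinned to 2121796 counts, a replicate block, a length-adjusted fit (offsets from a spline on length and GC content of the longest annotated transcript), and each library left out. Named genes were the members, Myc, up to 4 genes per list by smallest adjusted p, and the 3 nearest profiles of Odc1, Oaz1 and Eif5a. Members and lists were chosen with earlier results of these data known, and such choices give no independent support. The level of 1 marker gene is not reported here.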

Additional observations from a re-analysis of the deposited data

How the results depend on the processing

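With all 14 alternatives, Eif5a, Sms and Sat1 kept their direction and their call. Counts of members changed as follows. With upper-quartile factors 1 member was called higher and 5 lower (Odc1 gained), beside 2965 of all 10260 tested genes higher and 3767 lower. Without fl replicate 1, also 1 member was higher and 5 lower (Oaz1 gained), beside 3275 of 10196 genes higher and 3148 lower. Over all left-out libraries 1 to 2 members were higher and 4 to 5 lower. Beside these, 3076 to 3275 of the 10148 to 10622 tested genes were higher and 2973 to 3233 lower. In the length-adjusted fit 2 members were lower and 1 was higher, beside 27.8% of all genes lower and 30.6% higher. There, 3 transport genes were lower. In the list of S-adenosylmethionine supply and methionine salvage, 3 genes were lower and 1 higher. In that fit Odc1 was at 0.15, Oaz2 at 0.30 and Azin1 at -0.07, each opposite in sign to the fit as reported, as were the ratios Odc1 to Azin1 (0.23) and Srm to Sms (0.33), an alternative added after the data were seen. Oaz1 ranged from -0.98 without fl replicate 1 to 0.10 without fl replicate 2. The cause of these changes was not tested. Over all genes the calls numbered from 5488 of 8051 tested (at least 10 CPM in 3 libraries) to 7286 of 14759 tested (no count filter). Upper-quartile factors moved the median of all genes by -0.13, other scalings by at most 0.01. Replicate numbers are shared by the titles of fl and del, but the same-numbered libraries did not deviate together (correlations 0.083, -0.039 and -0.02). With the replicate block 6510 of 10260 tested genes were called, 3215 lower and 3295 higher. The members' calls were 4 lower and 2 higher, as without the block. Low counts limit what can be said of Oaz1, Sat2, Azin2 and Eif5a2, and for Oaz1 so does its shared 3' end.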
